A study of Drosophila melanogaster with 8 samples.

Results

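The genes described here are 62 uncharacterised genes, known in the deposited tables by a CG number and no given name, whose transcripts were lower in thoraces with active REPTOR. They were selected from 6315 genes with such a symbol among 17562 genes in all. A gene was kept when its mean over the control libraries was at least 3 CPM (the count divided by the total of its library, times 1e6) and when the log2 ratio of the REPTOR[ACT] mean to the control mean, each with 0.1 CPM added, was -1 or less. Of 2629 CG genes with a control mean of at least 3 CPM, 62 (2.36%) met both limits, and of 5373 other genes at that level 81 (1.51%) did, which made 143 of 8002 genes of any name (1.79%). Since the same 8 libraries chose the genes, their levels and ratios are given below as a description without a test.

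Thoraces of adult males were profiled by poly-A RNA sequencing, with 4 libraries in each group. REPTOR[ACT] flies carried tub-Gal80ts, dMef2-GAL4 and UAS-REPTOR[ACT], so that an active allele of REPTOR was expressed wherever the muscle driver dMef2-GAL4 was active. Control flies came from the same tub-Gal80ts; dMef2-GAL4 line crossed to w[1118] and carried no UAS transgene. Both groups therefore shared the driver and the temperature-sensitive repressor, were raised at 18 °C, spent 3 to 4 days as adults at 18 °C and 4 days at 29 °C, and were sampled as pools of 5 to 6 thoraces. Totals were 29.1 to 42.7 M reads (M, 1e6) in REPTOR[ACT] and 26.8 to 50.0 M reads in controls. REPTOR itself was measured at 336, 282, 278 and 314 CPM in REPTOR[ACT] thoraces, against 113, 126, 90.8 and 89.1 CPM in control thoraces. Summed muscle markers were 29910.5 to 30441 CPM in REPTOR[ACT] and 24526 to 27795 CPM in controls. Of these 13 markers 6 were higher, 1 was lower and 6 did not pass the test (edgeR adjusted p below 0.05). Mf, a thick filament protein gene, averaged 2389.7 ± 165 CPM in REPTOR[ACT] and 7936 ± 590.1 CPM in controls (SD, n = 4 each) and was the lower one (edgeR log2 fold change of -1.75, SE 0.07, adjusted p = 1.3e-08). Act88F, the flight muscle actin gene, averaged 3378 ± 375 CPM in REPTOR[ACT] and 380.1 ± 44.6 CPM in controls and was higher (edgeR log2 fold change of 3.14, SE 0.11, adjusted p = 5.6e-09). Mhc, the myosin heavy chain gene, averaged 9725 ± 481 CPM in REPTOR[ACT] and 5588 ± 226 CPM in controls and was also higher (edgeR log2 fold change of 0.78, SE 0.06, adjusted p = 1.4e-06). The summed accessory gland markers, of which 4 of 14 were at 0 in every library, were 0.509 to 1.31 CPM in REPTOR[ACT] and 0.412 to 0.48 CPM in controls. In whole thoraces, fewer cells of a type and less RNA per cell cannot be told apart.

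REPTOR is a bZIP transcription factor that is held inactive in the cytoplasm while TORC1 signalling is on and enters the nucleus when TORC1 is off. Flight muscle is among the most oxidative tissues known, and its mitochondria hold large amounts of the respiratory complexes, which are built from many subunits with the help of dedicated assembly factors. Many fly genes with only a CG number have a human counterpart of known function, and the roles given below come from those counterparts unless stated otherwise. Such a counterpart was listed for 35 of the 62 genes. The study's gene annotation, from which counterparts were read, held 54 of the 62. For a gene outside it, a missing role or counterpart does not mean that the gene has none. In the BDGP6.54 annotation 1 gene, CG4908, is now named Bcs1.

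One library has to be described before the values. Control replicate 1 held 40 genes at 3 CPM or more that were over 10 times the highest of the other 3 controls, whereas control replicates 2, 3 and 4 held 0 such genes and the REPTOR[ACT] libraries held 0 to 2. The photoreceptor opsin ninaE was at 0.725, 0.407, 0.929 and 1.42 CPM in REPTOR[ACT] thoraces, against 169.8, 0.14, 0.224 and 0.213 CPM in control thoraces. A list of 9 photoreceptor genes, chosen after these values were seen, summed to 1.73 to 3.04 CPM in the REPTOR[ACT] libraries, against 342 CPM in control replicate 1 and 1.25 to 1.53 CPM in the other controls. A list of 5 Malpighian tubule genes, chosen in the same way, summed to 3.04 to 5.43 CPM in REPTOR[ACT], against 32.1 CPM in control replicate 1 and 3.70 to 4.52 CPM in the other controls. The share of counts from the mitochondrial genome was 31.6 to 34.1% in REPTOR[ACT], against 30.4% in control replicate 1, the lowest of the controls, and 38.7 to 42.2% in the other controls. Control replicate 1 had the highest control value for 73.6% of the CG genes at 3 CPM or more. The part of this library in each result was not tested beyond leaving it out.

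Without control replicate 1, 49 of the 62 genes still met both limits and no other CG gene entered. The other 13 no longer did. Of these, 5 genes (CG15155, CG17752, CG13309, CG14292 and CG15406) were at or below 1.93 CPM in every REPTOR[ACT] library and at or below 0.187 CPM in the other 3 controls. CG15155 was measured at 0.0936, 0.0678, 0 and 0.0295 CPM in REPTOR[ACT] thoraces, against 12.1, 0, 0 and 0 CPM in control thoraces. CG17752 was at 0.0234, 0.373, 0 and 0.0591 CPM in REPTOR[ACT] thoraces, against 15.3, 0.040, 0.0373 and 0 CPM in control thoraces. CG13309 was at 0, 0.882, 0 and 0 CPM in REPTOR[ACT] thoraces, against 15.6, 0, 0 and 0 CPM in control thoraces. No role was found for these genes in the sources used here, which did not hold all of the 62. All of them were highest in control replicate 1. CG14292 was at 0.0936, 1.93, 0.103 and 0.0591 CPM in REPTOR[ACT] thoraces, against 24.5, 0.18, 0.187 and 0.186 CPM in control thoraces. CG15406 was at 0, 1.53, 0.0344 and 0.0295 CPM in REPTOR[ACT] thoraces, against 17.3, 0, 0 and 0 CPM in control thoraces. In the REPTOR[ACT] group, CG17752, CG13309, CG14292 and CG15406 were highest in replicate 2. The 5 tubule genes also had their highest sum of that group there, at 5.43 CPM against 3.04, 3.30 and 4.46 CPM in replicates 1, 3 and 4, whereas ninaE was at its lowest of that group. Irk3 alone held 2.48 CPM of the sum in REPTOR[ACT] replicate 1, and CapaR was at 0.170 CPM in replicate 2. Among these tubule genes Uro was at 0, 0.0678, 0.0344 and 0.0591 CPM in REPTOR[ACT] thoraces, below 3 reads in each library. In control replicate 1 Uro was at 10.8 CPM. The part of tubule RNA in the values of CG17752, CG13309, CG14292 and CG15406 was not tested. CG15155, CG17752, CG13309, CG14292 and CG15406 have the 5 most negative ratios of the selection, at -4.40 to -3.16, and without control replicate 1 their ratios turned positive, at 0.56 to 2.31. CG11892 was at 4.73, 5.19, 5.54 and 5.02 CPM in REPTOR[ACT] thoraces, against 36.6, 5.32, 4.18 and 3.99 CPM in control thoraces, and its ratio of -1.27 became 0.18 without that library. CG7084, a counterpart of the human SLC22 organic ion transporters, was at 5.4, 7.09, 5.61 and 7.15 CPM in REPTOR[ACT] thoraces, against 26.5, 9.08, 7.95 and 7.64 CPM in control thoraces, so that its ratio of -1.01 became -0.38. The other 6 (CG33965, CG42260, CG34150, CG5569, CG43897 and CG7772) stayed lower in REPTOR[ACT] without control replicate 1, at ratios of -0.90 to -0.99, just outside the limit.

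**Figure D1:**
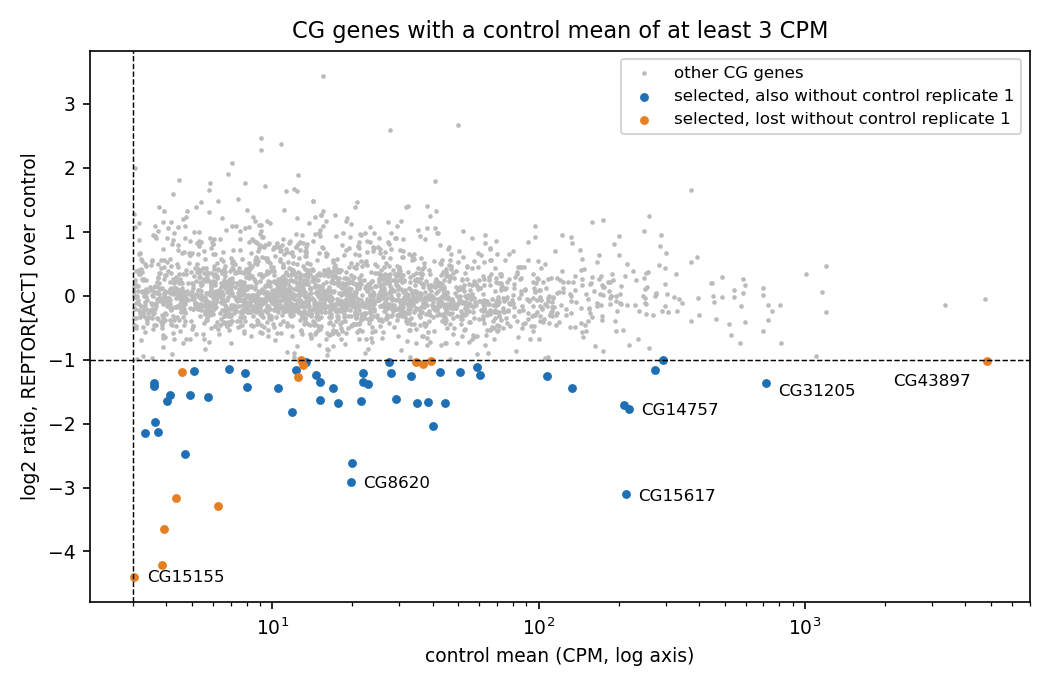
Control mean (CPM, log axis) against the log2 ratio of the group means for the 2629 CG genes with a control mean of at least 3 CPM. Grey points are genes that were not selected, blue points the 49 selected genes that also met the limits without control replicate 1, and orange points the 13 that did not. Dashed lines mark 3 CPM and a ratio of -1.

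**Figure D2:**
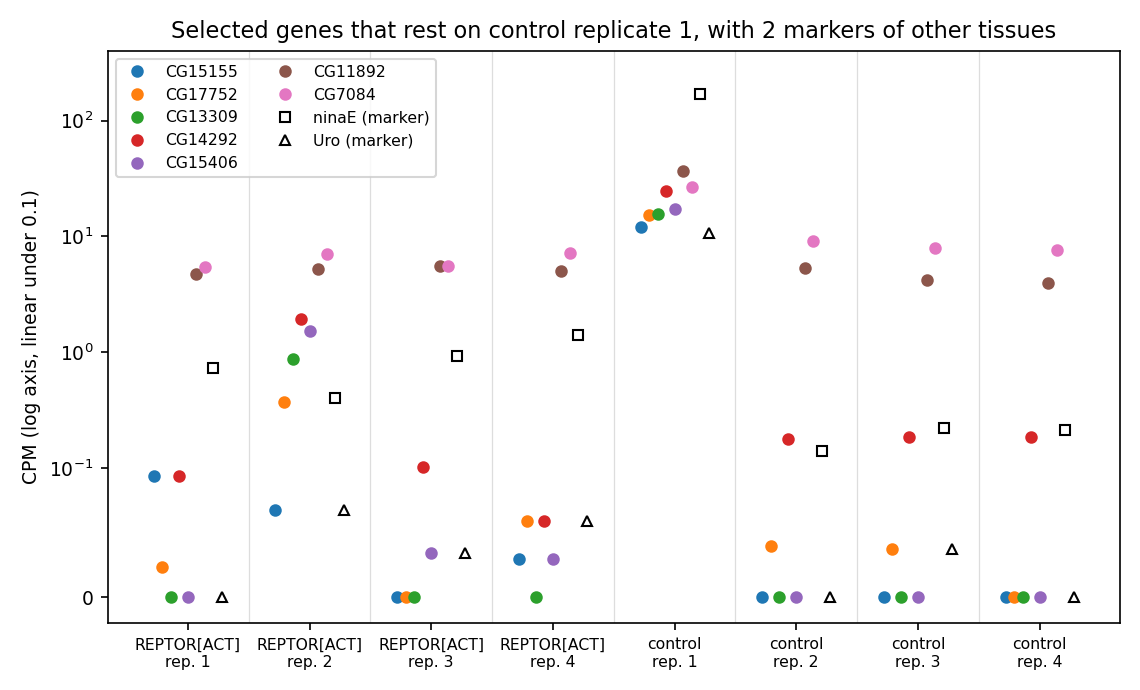
CPM (log axis, linear under 0.1) in each of the 4 REPTOR[ACT] and 4 control libraries for 7 selected genes, with the photoreceptor gene ninaE (square) and the tubule gene Uro (triangle). All 9 genes are highest in control replicate 1, and 5 of the selected genes are at or below 0.187 CPM in the other 3 controls.

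In 53 of the 62 genes every REPTOR[ACT] library was below every control library. Among the 8002 genes of any name with a control mean of at least 3 CPM this held for 14.1%. The 9 genes with overlapping groups were the 5 at or below 1.93 CPM outside control replicate 1, CG11892, CG33965, CG17562 and CG17560. The ratios of all 62 ran from -4.40 to -1.01 with a median of -1.42, against a median of -0.02 over the 2629 CG genes at that level. The 49 genes kept without control replicate 1 ran from -3.11 to -1.01 with a median of -1.44. In the count model over all genes 57 of the 62 passed the filter on low counts and 53 were called lower (edgeR adjusted p below 0.05), where 20.2% of the tested CG genes were. Those calls rest on the contrast that chose the genes.

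The limits cut through a continuous range. Just inside the ratio limit were CG32444 at -1.01, CG7084 at -1.01 and CG7772 at -1.02. Just outside it were CG44098 at -0.99, CG14301 at -0.98 and CG8818 at -0.98. At the level limit CG15155, CG14963 and CG31955 had control means of 3.03, 3.32 and 3.59 CPM. Below that limit CG9259, CG31198 and CG9961 had control means of 2.74, 2.33 and 2.28 CPM with ratios of -3.22, -3.53 and -1.87.

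Genes classed here as mitochondrial made up 11 of the 62, 7 of them counterparts of factors that assemble the respiratory complexes. CG43322, which is also on the list of other mitochondrial maintenance genes, is counted with the nuclear, signalling and cytoskeletal genes and not among the 11. The share of mitochondrial genes among the 2629 CG genes was not determined. All 11 had REPTOR[ACT] libraries that lay below all controls, as did 53 of the 62 selected genes, with ratios of -1.02 to -1.77. Without control replicate 1, 8 of the 11 met the limit, and 9 did so when library sizes were also scaled with TMM (trimmed mean of M values).

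Among the assembly genes 2 are counterparts of human SDHAF2, which helps to attach the FAD cofactor to the flavoprotein subunit of succinate dehydrogenase (complex II). CG14757 (chromosome arm 2R, 8172364 to 8173613, BDGP6.54) was at 66.6, 63.3, 63 and 63.5 CPM in REPTOR[ACT] thoraces, against 244, 203, 224 and 204 CPM in control thoraces. The REPTOR[ACT] libraries of CG14757 differed among themselves by little, and the group mean was 29.3% of the control mean, a ratio of -1.77. CG12895 (chromosome arm 2R, 10436598 to 10437382) was at 11.9, 11.5, 13.3 and 11.5 CPM in REPTOR[ACT] thoraces, against 29.7, 25.2, 29.5 and 27.6 CPM in control thoraces, a ratio of -1.21. Per kilobase of exon, CG14757 was at 86.7 CPM per kb in REPTOR[ACT] and 296 CPM per kb in controls, and CG12895 was at 18.1 CPM per kb in REPTOR[ACT] and 42 CPM per kb in controls, so that CG14757 was the more abundant copy in both groups. The sources used here do not give how reads that fit both genes were counted.

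For cytochrome c oxidase (complex IV), CG9921 is the counterpart of HIGD2A, a small inner membrane protein that acts in the assembly of complex IV and of supercomplexes. CG9921 (chromosome arm X, 16331281 to 16333600) was at 63.8, 64.2, 61.9 and 66.4 CPM in REPTOR[ACT] thoraces, against 234, 189.6, 211 and 205 CPM in control thoraces, with a ratio of -1.71. CG13018, the counterpart of the complex IV assembly factor COA5, was at 6.08, 5.77, 5.95 and 6.77 CPM in REPTOR[ACT] thoraces, against 18.7, 15.2, 17.2 and 16.5 CPM in control thoraces, with a ratio of -1.45. In both genes the gap between the groups was wider than the spread within either. For the bc1 complex (complex III), both selected genes are counterparts of human factors that handle the Rieske iron-sulphur protein. CG4908 (Bcs1), the counterpart of the AAA translocase BCS1L, was at 6.48, 6.65, 6.19 and 6.59 CPM in REPTOR[ACT] thoraces, against 13, 11.5, 15.2 and 13.7 CPM in control thoraces, with a ratio of -1.03. CG34150, the counterpart of the Rieske chaperone LYRM7, was at 17, 16.9, 18.6 and 17.3 CPM in REPTOR[ACT] thoraces, against 42.2, 31.7, 37.6 and 35.3 CPM in control thoraces, with a ratio of -1.07 that became -0.99 without control replicate 1. For NADH dehydrogenase (complex I), CG5569 is the counterpart of the assembly factor NDUFAF3. CG5569 was at 18.2, 16.6, 17.8 and 15.3 CPM in REPTOR[ACT] thoraces, against 43.7, 30.8, 33.4 and 31.1 CPM in control thoraces, with a ratio of -1.03 that became -0.90 without control replicate 1.

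The other 4 of the 11 mitochondrial genes have roles outside assembly. CG8520 is the counterpart of AFG1L, a mitochondrial AAA ATPase linked to protein quality control, and it was at 47.8, 46.9, 50.2 and 51.6 CPM in REPTOR[ACT] thoraces, against 144, 130.1, 137 and 125 CPM in control thoraces. Its ratio was -1.44. CG5500, the counterpart of OXLD1, a protein with an oxidoreductase-like domain, was at 14, 13.1, 13.8 and 14.5 CPM in REPTOR[ACT] thoraces, against 52.7, 39.5, 47.4 and 38.3 CPM in control thoraces, and its ratio was -1.68. CG18324, the counterpart of the carrier family member SLC25A34, was at 8.98, 8.72, 7.84 and 9.48 CPM in REPTOR[ACT] thoraces, against 26.6, 20.1, 21.9 and 22.9 CPM in control thoraces, and its ratio was -1.38. For CG18324, 92.6% of the exon bases lie opposite the antisense gene asRNA:CR44368, which averaged 3.62 CPM in REPTOR[ACT] and 2.73 CPM in controls, and the sources used here do not give a strand setting for the counting. CG7772, the counterpart of the fission protein MTFP1, was at 19.8, 20.4, 18.7 and 18.5 CPM in REPTOR[ACT] thoraces, against 48, 34.3, 39.6 and 35.7 CPM in control thoraces. Its ratio of -1.02 became -0.91 without control replicate 1.

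**Figure D3:**
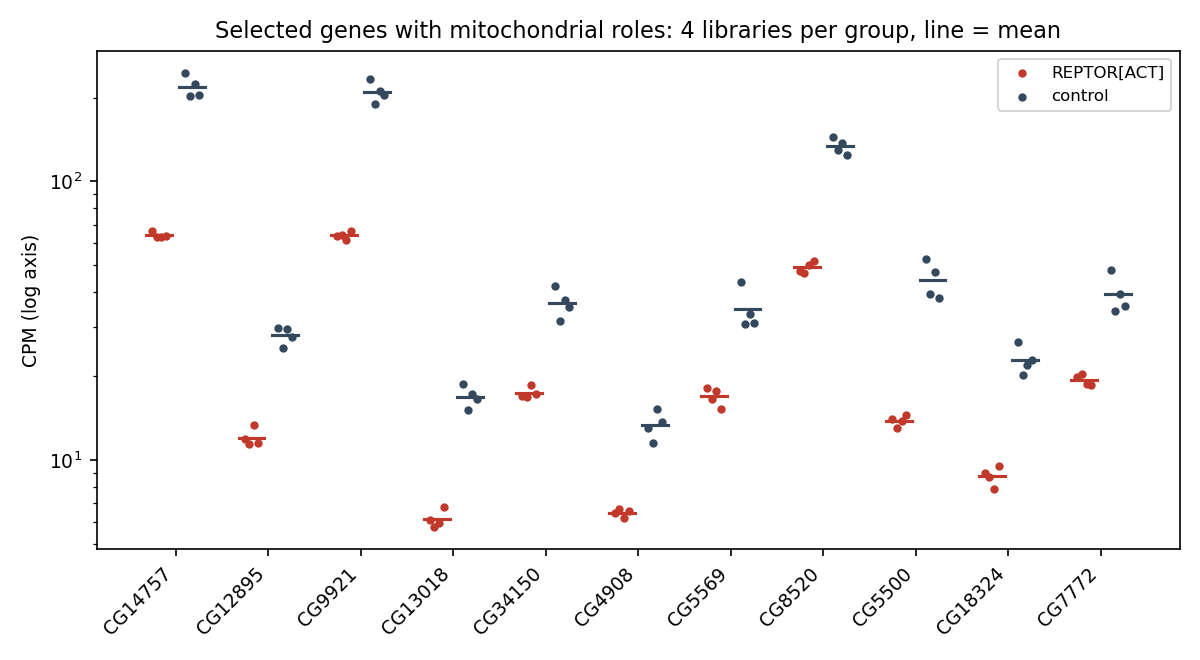
CPM (log axis) of the 11 selected genes with mitochondrial roles in each library, with REPTOR[ACT] in red on the left and controls in dark blue on the right of each pair, and the group mean as a line. In all 11 genes the 4 REPTOR[ACT] points lie below the 4 control points.

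Other assembly factors, which the selection did not include, were read from a list of 26 names, of which 25 were matched in the tables. This pathway was chosen from genes lowered in the study's own results, so the counts below are not independent of this contrast. Beside the 7 selected genes, 17 of the list passed the filter on low counts. Of these 17, 10 were lower in REPTOR[ACT], 0 were higher and 7 did not pass the test (edgeR quasi-likelihood test, adjusted p below 0.05 over 9903 genes). Over all 9903 genes 44.2% were called and 19.4% were called lower. The median log2 fold change of the 17 was -0.30, against -0.01 over all genes tested. At an unadjusted p below 0.05, 1 of the 17 was higher by edgeR, and DESeq2 called 0 of them higher. The 3 that fell most were Cox10, Ttc19 and Cox17. Cox10, the haem A farnesyltransferase of complex IV assembly, was at 89.6, 89, 94.6 and 91.7 CPM in REPTOR[ACT] thoraces, against 182, 146, 166 and 158 CPM in control thoraces (edgeR log2 fold change of -0.85, SE 0.06, adjusted p = 5.3e-07). Ttc19, which acts on complex III, was at 34, 30.6, 27.3 and 30.4 CPM in REPTOR[ACT] thoraces, against 56.1, 51.6, 51.3 and 50.1 CPM in control thoraces (edgeR log2 fold change of -0.79, SE 0.08, adjusted p = 8.2e-06). Cox17, a copper chaperone for complex IV, was at 44.5, 41.8, 41.2 and 42 CPM in REPTOR[ACT] thoraces, against 77.6, 59.5, 65 and 57.2 CPM in control thoraces (edgeR log2 fold change of -0.62, SE 0.06, adjusted p = 8.6e-06). In none of these 3 genes did the groups overlap. By complex, 2 of 2 tested factors for complex III were lower, 4 of 6 for complex IV, 4 of 7 for complex I and 0 of 2 for complex II. With the replicate number as a block, Sirup and CG3270 were also lower (edgeR adjusted p = 0.0225 and 0.0167) and CG3803 was higher (edgeR adjusted p = 0.0211), which made 12 lower and 1 higher.

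The complex II factors that were not selected, Sirup and Sdhaf3, had log2 fold changes of -0.19 ± 0.18 and -0.03 ± 0.10 (SE) and did not pass the test without a block (edgeR adjusted p = 0.428 and 0.804). The 4 subunits of succinate dehydrogenase moved unequally. SdhA, the flavoprotein that SDHAF2 acts on, was at 697, 709, 680.1 and 725 CPM in REPTOR[ACT] thoraces, against 1728, 1495, 1587 and 1389.9 CPM in control thoraces, a fall beyond the spread between libraries (edgeR log2 fold change of -1.16, SE 0.06, adjusted p = 5.1e-08). SdhB, the iron-sulphur subunit, averaged 489.5 ± 39.4 CPM in REPTOR[ACT] and 749 ± 94.9 CPM in controls (SD, n = 4 each) and was also lower (edgeR log2 fold change of -0.63, SE 0.08, adjusted p = 5e-05). SdhC, a membrane anchor, averaged 560.4 ± 28.3 CPM in REPTOR[ACT] and 542 ± 43.5 CPM in controls (SD, n = 4 each) and did not pass the test (edgeR log2 fold change of 0.03, SE 0.06, adjusted p = 0.711). SdhD, the other anchor, averaged 322 ± 13.4 CPM in REPTOR[ACT] and 348 ± 43.5 CPM in controls and did not pass it either (edgeR log2 fold change of -0.12, SE 0.06, adjusted p = 0.122). The testis-type copies SdhAL and SdhBL were at or near the counting limit in both groups.

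**Figure D4:**
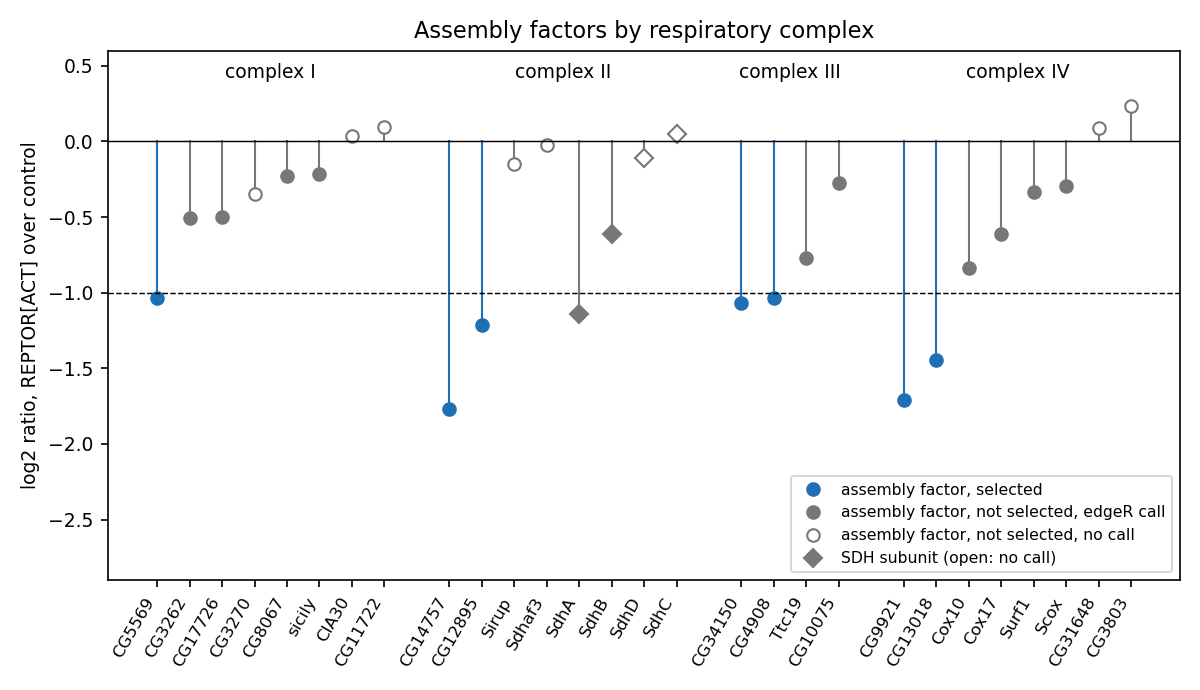
Log2 ratio of REPTOR[ACT] over control means for assembly factors of respiratory complexes I to IV and for the 4 succinate dehydrogenase (SDH) subunits. Blue circles are selected genes, grey circles other assembly factors and diamonds subunits, filled where edgeR called a change. The 7 selected genes lie at -1.03 to -1.77 and 10 further factors were called lower.

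Of a list of other mitochondrial maintenance genes (proteolysis, fission, fusion, import and carriers), 13 were tested and not selected. Of these, 5 were lower, 3 higher and 5 did not pass the test, with a median log2 fold change of -0.08. Over all 9903 genes tested, 44.2% were called in either direction and 19.4% lower. Among the 13, the calls of CG9240, YME1L and Spg7 were lost with single libraries left out. The gene closest to selection was CG11110, a subunit of the mitochondrial inner membrane peptidase, at 5.92, 5.7, 6.67 and 6.2 CPM in REPTOR[ACT] thoraces, against 11.9, 10.9, 12.8 and 12.4 CPM in control thoraces (edgeR log2 fold change of -1.0, SE 0.09, adjusted p = 5.7e-06). The fusion gene Opa1 was lower (edgeR log2 fold change of -0.35, SE 0.06, adjusted p = 0.00041), and the inner membrane protease gene Afg3l2 was higher (edgeR log2 fold change of 0.49, SE 0.09, adjusted p = 0.00109). Drp1, the fission dynamin, averaged 45.6 ± 2.98 CPM in REPTOR[ACT] and 45.9 ± 4.84 CPM in controls (SD, n = 4 each), and Marf, the outer membrane fusion gene, averaged 575 ± 16.4 CPM in REPTOR[ACT] and 601 ± 36.4 CPM in controls. Neither passed the test (edgeR adjusted p = 0.708 and 0.228).

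The 2 muscle genes, annotated to actin binding and muscle structure, were listed with the Zasp-type PDZ domain proteins, which sit at the Z-discs of fly muscle. CG15617 (chromosome arm 2R, 16745223 to 16746579) had the most negative ratio of the genes that did not rest on control replicate 1. It was at 19.8, 32.2, 13.2 and 33.2 CPM in REPTOR[ACT] thoraces, against 244, 114, 238 and 254 CPM in control thoraces, so that the REPTOR[ACT] mean was 11.6% of the control mean, a ratio of -3.11. Both groups varied for this gene, and control replicate 2 was the lowest of the controls, yet above every REPTOR[ACT] library. Its neighbour Sfp53D, a seminal fluid protein gene that lies 108 bases away on the same strand and was singled out after its values were seen, was at 0.796, 0.882, 0.757 and 1.0 CPM in REPTOR[ACT] thoraces, against 4.63, 2.18, 4.52 and 7.32 CPM in control thoraces (edgeR log2 fold change of -2.46, SE 0.38, adjusted p = 0.000863). Control replicate 2 was the lowest control for both neighbours. CG43897 (chromosome arm 3L, 9813847 to 9834345) was the most abundant of the 62 genes in CPM. It was at 2290.3, 2533, 2328 and 2362 CPM in REPTOR[ACT] thoraces, against 5610.2, 4833, 4679 and 4241 CPM in control thoraces, a ratio of -1.03 that became -0.95 without control replicate 1. Per kilobase of exon it was at 301 CPM per kb in REPTOR[ACT] and 612 CPM per kb in controls. Among the other Zasp-type genes, Zasp66 was lower (edgeR log2 fold change of -0.56, SE 0.08, adjusted p = 9.6e-05), Zasp67 was higher (edgeR log2 fold change of 1.62, SE 0.20, adjusted p = 7.5e-05) and Zasp52 did not pass the test (edgeR log2 fold change of -0.01, SE 0.09, adjusted p = 0.93).

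Enzymes of lipids, sugars and other small molecules made up 12 of the 62 genes. In all 12 every REPTOR[ACT] library was below every control, as in 53 of the 62, and all 12 met the limits without control replicate 1. CG42329, annotated as an acyltransferase, had the most negative ratio of them at -2.62, with 3.44, 3.76, 2.79 and 2.66 CPM in REPTOR[ACT] thoraces, against 22.7, 21, 18.6 and 17.4 CPM in control thoraces. CG11437, a counterpart of the phospholipid phosphatases PLPP1 to PLPP3, was at 0.796, 0.407, 0.998 and 0.886 CPM in REPTOR[ACT] thoraces, against 4.6, 3.06, 3.32 and 3.86 CPM in control thoraces, a ratio of -2.13. In its family, wun was lower (edgeR log2 fold change of -0.56, SE 0.09, adjusted p = 0.00032) and CG11438 was lower (edgeR log2 fold change of -0.63, SE 0.17, adjusted p = 0.0104), while wun2, laza, CG11425 and CG11426 did not pass the test, with log2 fold changes of -0.01 to 0.13. CG3009, the counterpart of the secreted phospholipase PLA2G3, was at 8.47, 9.53, 9.22 and 10.7 CPM in REPTOR[ACT] thoraces, against 30.9, 25.6, 28.2 and 32 CPM in control thoraces. CG31809, the counterpart of the dehydrogenase-like protein HSDL1, was at 0.562, 1.09, 0.963 and 0.768 CPM in REPTOR[ACT] thoraces, against 2.81, 4.16, 4.11 and 3.41 CPM in control thoraces. The ratios of these genes were -1.61 and -1.98, and CG31809 was among the least abundant of the set.

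CG11619, the counterpart of GPCPD1, an enzyme that cleaves glycerophosphocholine, lies next to another selected gene. CG11619 (chromosome arm 3L, 18985905 to 18988323) was at 13.2, 9.02, 11 and 10 CPM in REPTOR[ACT] thoraces, against 36.5, 29.7, 30.9 and 42.8 CPM in control thoraces. CG34256 (chromosome arm 3L, 18988736 to 18989815), which lies 412 bases away on the same strand and has no annotated role, was at 3.51, 2.75, 3.72 and 3.22 CPM in REPTOR[ACT] thoraces, against 11.4, 10.5, 11.5 and 14 CPM in control thoraces. The ratios were -1.68 and -1.81, and in both genes replicate 2 was the lowest library of each group and replicate 4 the highest control. The next gene on that strand, CG18135, singled out after its values were seen, lies 210 bases beyond CG34256. It averaged 570.4 ± 138 CPM in REPTOR[ACT] and 1100.4 ± 179 CPM in controls (SD, n = 4 each) and was also lower (edgeR log2 fold change of -0.96, SE 0.18, adjusted p = 0.00283).

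CG32444, the counterpart of the aldose 1-epimerase GALM, was at 143, 82.9, 173 and 184 CPM in REPTOR[ACT] thoraces, against 292, 229, 302 and 346 CPM in control thoraces, a ratio of -1.01. Its spread was wide, with replicate 2 lowest in both groups. CG10561, the counterpart of the polyamine oxidase PAOX, was at 44.3, 42.9, 45.4 and 47.9 CPM in REPTOR[ACT] thoraces, against 117, 105, 111 and 99.3 CPM in control thoraces, a ratio of -1.26. CG8768, the counterpart of the short-chain dehydrogenase SDR39U1, was at 33.7, 29.2, 23.9 and 22.3 CPM in REPTOR[ACT] thoraces, against 57.4, 58.5, 56.3 and 63.2 CPM in control thoraces, a ratio of -1.11. CG32112, the counterpart of the hydrolase-domain protein ABHD18, was at 18.7, 18.7, 19.1 and 17.7 CPM in REPTOR[ACT] thoraces, against 47, 37, 47 and 39.5 CPM in control thoraces. Its ratio was -1.20. CG6083, a counterpart of the aldose reductases AKR1B1 and AKR1B10, was at 7.63, 8.0, 9.32 and 9.37 CPM in REPTOR[ACT] thoraces, against 24.8, 17.9, 24.3 and 20.7 CPM in control thoraces, a ratio of -1.34. CG17109, the counterpart of the aminoacylase ACY1, was at 1.33, 1.36, 1.41 and 2.3 CPM in REPTOR[ACT] thoraces, against 6.56, 4.08, 4.59 and 4.34 CPM in control thoraces, a ratio of -1.55. CG15912, the counterpart of the hydrolase-like protein HDHD3, was at 3.28, 2.71, 3.68 and 3.81 CPM in REPTOR[ACT] thoraces, against 8.34, 7.5, 7.88 and 7.96 CPM in control thoraces. Its ratio of -1.21 was close to that of CG32112.

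Under proteolysis 3 genes were grouped. CG31205 is annotated as a serine protease homologue that lacks key catalytic residues, and per kilobase of exon it was the most abundant of the 62 genes in controls, at 270.3 CPM per kb in REPTOR[ACT] and 699 CPM per kb in controls. It was at 257, 202, 317 and 327 CPM in REPTOR[ACT] thoraces, against 812, 619.5, 736 and 684 CPM in control thoraces, a ratio of -1.37, and replicate 2 was the lowest library of each group. CG17684, the counterpart of the dipeptidyl peptidase-like proteins DPP6 and DPP10, was at 8.91, 10, 9.01 and 9.81 CPM in REPTOR[ACT] thoraces, against 23.3, 23, 21.8 and 19.6 CPM in control thoraces, a ratio of -1.21. CG30466, annotated to an SCF ubiquitin ligase complex, was at 4.28, 3.02, 3.75 and 4.22 CPM in REPTOR[ACT] thoraces, against 11.4, 10.8, 9.71 and 10.2 CPM in control thoraces. Its ratio was -1.44.

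Nuclear, signalling and cytoskeletal genes numbered 5, all without overlap between groups, as in 53 of the 62. CG11617, the counterpart of the homeobox factor MKX, known in mammals from tendon development, was at 9.15, 9.23, 9.67 and 10.7 CPM in REPTOR[ACT] thoraces, against 45.7, 37.2, 40.4 and 37.4 CPM in control thoraces, a ratio of -2.04. CG6424, the counterpart of FAM13A, ranged over 4.49 to 6.5 CPM in REPTOR[ACT] and 13.2 to 22.4 CPM in controls. CG43322, the counterpart of the J-domain protein DNAJC28 and also listed with the mitochondrial maintenance genes, ranged over 4.07 to 5.44 CPM in REPTOR[ACT] and 14.1 to 16.1 CPM in controls. The ratios of CG6424 and CG43322 were -1.68 and -1.62. CG15528, the counterpart of the dual-specificity phosphatase DUSP14, ranged over 9.23 to 16.6 CPM in REPTOR[ACT] and 29.6 to 38.9 CPM in controls, a ratio of -1.25. CG15701, the counterpart of the dynein intermediate chain DYNC2I1, ranged over 2.51 to 3.47 CPM in REPTOR[ACT] and 5.82 to 7.31 CPM in controls, a ratio of -1.14.

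Of the 4 transport genes, 1 met the limits without control replicate 1. That gene was CG13793, a counterpart of several SLC6 amino acid and neurotransmitter transporters, which ranged over 1.44 to 2.08 CPM in REPTOR[ACT] and 4.55 to 6.5 CPM in controls with a ratio of -1.58. CG42260, the counterpart of the cyclic nucleotide-gated channel CNGA2, ranged over 5.23 to 8.34 CPM in REPTOR[ACT] and 9.8 to 16.3 CPM in controls, and its ratio of -1.09 became -0.96 without control replicate 1. CG33965, a counterpart of the lipid-binding CRAL-TRIO proteins RLBP1 and TTPAL, was at 2.53, 2.82, 1.17 and 1.27 CPM in REPTOR[ACT] thoraces, against 6.97, 6.02, 2.39 and 2.93 CPM in control thoraces. Its groups overlapped, and in both of them replicates 1 and 2 were higher than replicates 3 and 4. CG7084, the fourth, is described above.

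The remaining 25 genes were placed in no class, and 19 of them met the limits without control replicate 1. Among these, CG8620, which has no annotated role, had the most negative ratio at -2.91, with 1.29, 2.34, 3.2 and 3.28 CPM in REPTOR[ACT] thoraces, against 21, 16.8, 18.9 and 22 CPM in control thoraces. CG33509 was at 0.796, 0.78, 0.929 and 0.561 CPM in REPTOR[ACT] thoraces, against 5.15, 4.4, 4.48 and 4.85 CPM in control thoraces, a ratio of -2.48. CG14963 was at 0.304, 0.746, 0.998 and 0.65 CPM in REPTOR[ACT] thoraces, against 3.95, 2.32, 3.51 and 3.49 CPM in control thoraces, a ratio of -2.14. Their exons span 776, 1405 and 932 bases, and in each of the 3 the groups lay apart. For CG14963, 16.5% of the exon bases lie opposite CG32278, which averaged 112 CPM in REPTOR[ACT] and 63.2 CPM in controls.

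The most abundant genes of this remainder were CG32647 and CG14401. CG32647, a counterpart of the membrane protein DGCR2, was at 127, 116, 128 and 114 CPM in REPTOR[ACT] thoraces, against 307, 298, 259 and 229 CPM in control thoraces, a ratio of -1.17. CG14401, with no annotated role, was at 22.5, 24.5, 27.3 and 27.9 CPM in REPTOR[ACT] thoraces, against 60.4, 59.1, 61.5 and 60.9 CPM in control thoraces. The controls of CG14401 lay within a narrow range, and its ratio was -1.24. CG14238, the counterpart of TMEM26, and CG4553, the counterpart of NGRN, had ratios of -1.42 and -1.16. No counterpart above the score used was found for CG42337, CG13144, CG17264, CG14864, CG31955, CG16898, CG15247, CG34054 and CG14431. Their ratios ran from -1.66 for CG42337 to -1.04 for CG14431. The groups did not overlap in any of the 9, as in 53 of the 62 selected genes.

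CG17562 and CG17560 are a further pair of neighbours. They lie 795 bases apart on the same strand (CG17562 at chromosome arm 3R, 16615309 to 16617154). CG17562 was at 2.81, 2.54, 5.16 and 1.15 CPM in REPTOR[ACT] thoraces, against 8.99, 7.48, 2.8 and 12.9 CPM in control thoraces. CG17560 was at 4.33, 4.41, 12.2 and 3.55 CPM in REPTOR[ACT] thoraces, against 14.4, 12.7, 6.87 and 24.4 CPM in control thoraces. The groups overlapped in both genes, replicate 3 was the highest REPTOR[ACT] library and the lowest control, and replicate 4 was the highest control. A list of 4 oenocyte markers (oenocytes are lipid-handling cells under the cuticle) summed to 1820, 1532, 2603 and 859 CPM in REPTOR[ACT] thoraces, against 2286, 2242, 978 and 3747 CPM in control thoraces. The highest and the lowest library of each group were the same for the marker sum as for both genes. The same held for Cyp4g1, which made up most of the sum, and for FASN2 and FASN3. The remaining marker, svp, differed, at 56.2, 77.8, 53.1 and 53.3 CPM in REPTOR[ACT] thoraces, against 64.7, 54.2, 48.5 and 48.7 CPM in control thoraces. The part of oenocyte RNA in the values of these genes was not tested.

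**Figure D5:**
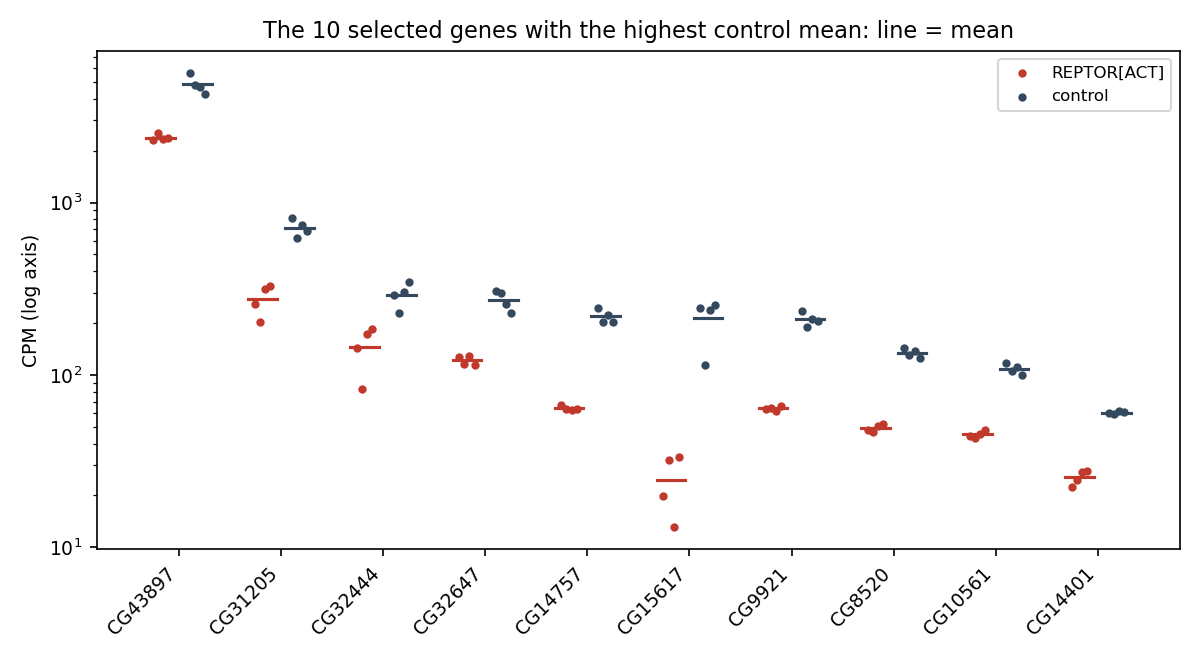
CPM (log axis) in each library for the 10 selected genes with the highest control mean, with REPTOR[ACT] in red on the left and controls in dark blue on the right of each pair, and the group mean as a line. CG43897 is the highest in both groups, CG15617 shows the widest gap between groups, and the control points of CG14401 lie closest together.

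Features that the selection did not use were compared with the 2629 CG genes at 3 CPM or more, as a description. The median exon length was 1386 bases for the 62 genes and 1874 bases for all 2629. By chromosome arm, 14 of the 62 lay on 2L, 15 on 2R, 12 on 3L, 14 on 3R and 7 on X. Chromosome 2 thus held 46.8% of the 62 genes and 37.1% of the 2629, and the X chromosome held 11.3% and 18.0%. In the 62 genes 16 had replicate 2 as the lowest library of both groups (25.8%), and in the 2629 genes 26.5% did. Exon bases were shared with a gene on the opposite strand in 24 of the 62 genes. After CG18324 the largest shares were 36.2% in CG15528 (asRNA:CR44046), 36.1% in CG13144 (CG6144) and 28.6% in CG32444 (asRNA:CR45955), and without a stated strand rule reads from both strands cannot be told apart there. On the same strand, CG6424 shares 92.3% of its exon bases with CG46315, which was listed at 0 in every library. Of 94 tested neighbours that were not selected themselves, 24 were lower and 17 were higher (edgeR adjusted p below 0.05). Over all 9903 genes tested, 44.2% were called in either direction and 19.4% were called lower.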

How the data were processed

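RNA came from thoraces of 4 REPTOR[ACT] and 4 control pools of male flies, and groups were taken from the genotype labels. Libraries were made by the authors with a KAPA HyperPrep kit for poly-A RNA and run on a NextSeq in 4 pools, and their reads were mapped with STAR 2.7.2b on the FlyBase r6.30 genome before testing in DESeq2 1.34.0, as the methods of the study state. The labels differ, with a TruSeq kit, a HiSeq2000 machine and the mouse build mm10. For the counting step, the sources used here give no tool, no strand rule and no rule for reads that fit several genes.

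The deposited values are expected counts per gene, unscaled, in 1 table per library. All were multiples of 0.25 (within 1e-06), so that 4 times each value was a whole number, and this was used as the read count. That 4 pools were averaged is inferred from the values. In a library 3 reads equal 0.0600 to 0.112 CPM, a limit that covers counting error alone. A row without a gene name held 0 counts and was left out.

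Members and gene lists were chosen with earlier results of these data known. CPM used the library total of all genes. Genes outside the selection were tested with edgeR 4.0.16 (filterByExpr, TMM, robust quasi-likelihood, Benjamini-Hochberg adjustment over 9903 genes, threshold 0.05) on all 8 libraries without covariate, and with DESeq2 1.42.0 as an alternative, in R 4.3.3. On simulated counts the test was checked for recovery of known changes. Nothing in the labels says that the pools were independent cultures, so p-values measure the spread between these samples. Same-numbered libraries deviated together over the 9903 tested genes, with correlations of TMM-scaled deviations of 0.151, 0.486, 0.236 and 0.163 for replicates 1 to 4, all above 0.1, and were taken as paired. With file-total CPM the value for replicate 1 was 0.152. Over the 8002 genes with a control mean of at least 3 CPM it was 0.0693 (TMM) or 0.0733 (file totals), and over all 17562 genes 0.0167 or 0.00956, so that for replicate 1 the pairing rests on the set of genes. For replicate 4 of REPTOR[ACT] control replicate 3 went along more closely, at 0.253, and for control replicate 4 REPTOR[ACT] replicate 3 did, at 0.192. No 2 libraries were copies.

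Every selected gene is accounted for. Values in each library are given for genes of the mitochondrial, muscle, enzyme and proteolysis classes, for the 10 most negative ratios, the 10 highest control means and neighbouring pairs. Other genes were named from the lists, of which 69 of 71 pathway symbols and 109 of 109 marker symbols were matched. Summed markers not given in the report were 4794 to 7282 CPM in REPTOR[ACT] and 4193 to 6171 CPM in controls for fat body, 234 to 266 CPM in REPTOR[ACT] and 163 to 257 CPM in controls for testis, 555 to 716 CPM in REPTOR[ACT] and 680.0 to 824 CPM in controls for hemocytes, 1073 to 1168 CPM in REPTOR[ACT] and 1034 to 1379 CPM in controls for neurons, 1652 to 1846 CPM in REPTOR[ACT] and 1291 to 1674 CPM in controls for glia, 37.7 to 194 CPM in REPTOR[ACT] and 58.9 to 118 CPM in controls for gut, 86.8 to 122 CPM in REPTOR[ACT] and 87.3 to 116 CPM in controls for trachea and 213 to 255 CPM in REPTOR[ACT] and 210.0 to 405 CPM in controls for epidermis. Most of the testis sum was the single gene bol, at 226 to 261 CPM in REPTOR[ACT] and 157 to 251 CPM in controls. Human counterparts were read from the study's gene annotation at a score of at least 3. Coordinates and exon overlaps come from the Ensembl BDGP6.54 annotation, to which all 62 genes were matched. No sequence is shown. Figures were drawn with matplotlib 3.10.9.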

Additional observations from a re-analysis of the deposited data

Results flagged for a closer look

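Each group of 4 libraries was examined for a highest or lowest value whose gap to the next value covered most of the group's range (Dixon's ratio past its 95% critical value), which chance gives in about 1 of 20 groups. In the 62 genes 17 of 124 groups (13.7%) held such a value, against 281 of 5258 groups (5.34%) over all CG genes with a control mean of at least 3 CPM. The selection used the control mean, which a single high library raises, so the higher share in the 62 is not independent of the selection.

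Control replicate 1 accounted for 7 of the 17, all as the highest control. The values there were 12.1 CPM for CG15155, 15.3 CPM for CG17752, 15.6 CPM for CG13309, 24.5 CPM for CG14292, 17.3 CPM for CG15406, 36.6 CPM for CG11892 and 26.5 CPM for CG7084. REPTOR[ACT] replicate 2 accounted for 5, all as the highest of its group, with 0.373 CPM for CG17752, 0.882 CPM for CG13309, 1.93 CPM for CG14292, 1.53 CPM for CG15406 and 8.34 CPM for CG42260. The genes CG17752, CG13309, CG14292 and CG15406 therefore stood out in a single library of each group.

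Control replicate 2 was far below the other controls for CG15617, at 114 CPM, and for CG34054, at 3.88 CPM. Among REPTOR[ACT] libraries, replicate 1 was the highest for CG14757, at 66.6 CPM, where the whole group spanned 63.0 to 66.6 CPM. Replicate 4 was the highest for CG17109, at 2.30 CPM, and replicate 3 for CG17560, at 12.2 CPM. Beyond Dixon's ratio, no test of these values was made.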

How the results depend on the processing

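The selection numbered 62 genes, 61 with TMM scaling, 79 with totals that left out the mitochondrial genome (a median shift of -0.10 in the log2 ratio of all genes at 3 CPM or more, against -0.02 with TMM), 52 with a pseudocount of 1 CPM, and 77 or 42 with a control mean of at least 1 or 10 CPM. Leaving out single libraries gave 49 genes (without control replicate 1) to 69 (without control replicate 3), and 56 remained without control replicate 1 under TMM scaling, 52 of them among the 62. Reversed signs came only from leaving out control replicate 1. Over single libraries left out the ratios ran from -4.81 to 0.56 for CG15155, -4.96 to 0.77 for CG17752, -5.32 to 1.68 for CG13309, -5.10 to 1.19 for CG14292, -5.19 to 2.31 for CG15406 and -1.57 to 0.18 for CG11892. All selected genes kept a ratio within the spread between libraries under TMM scaling. With a pseudocount of 1 CPM 9 low genes moved further, none of them changing sign.

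Genes changed numbered 4377 by edgeR, 3583 without TMM, 4441 with DESeq2 size factors, 4305 without the filter, 3884 with deposited values rounded and 4437 by DESeq2, and 3856 to 4372 with a library left out. The split moved from 1918 lower and 2459 higher to 1308 lower and 2275 higher without TMM. The replicate block, used because same-numbered libraries deviated together over the tested genes, raised the count to 5233 and called 32 rather than 26 of 49 tested list genes. Beside the 3 assembly factors given above, the block added Fis1 (edgeR adjusted p = 0.0306), Mgstl (0.0325) and CG33178 (0.0151) and removed no call.

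Assembly factors called lower numbered 8 without TMM and 9 to 11 with a library left out. Calls lost were CG8067 without REPTOR[ACT] replicate 3, control replicate 3 or control replicate 4, CG9240 without REPTOR[ACT] replicate 1 or control replicate 4, YME1L without REPTOR[ACT] replicate 1 or 4 or control replicate 1 or 2, and Spg7 without REPTOR[ACT] replicate 1 or control replicate 1 (edgeR adjusted p = 0.0505 to 0.0825). At 26.8 to 50.0 M reads, levels under 0.0600 to 0.112 CPM could not be told from 0.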

Other observations

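A further 69 CG genes had a ratio of -1 or less with a control mean under 3 CPM. Among listed relatives of well known enzymes, CG33177, a microsomal glutathione transferase, was at 0.187, 0.237, 0.0688 and 0.207 CPM in REPTOR[ACT] thoraces, against 2.71, 1.9, 2.17 and 2.0 CPM in control thoraces (edgeR log2 fold change of -3.61, SE 0.25, adjusted p = 6.9e-07). Its relatives Mgstl and CG33178 did not pass the test (edgeR log2 fold changes of -0.19 and -0.20, adjusted p = 0.0821 and 0.271) but were lower with the replicate block. CG9961, a second phosphoglycerate kinase gene, was at 0.351, 0.712, 0.585 and 0.561 CPM in REPTOR[ACT] thoraces, against 1.85, 2.3, 2.84 and 2.13 CPM in control thoraces (edgeR log2 fold change of -2.10, SE 0.24, adjusted p = 3.2e-05). Pgk, the abundant kinase of glycolysis, averaged 308 ± 12.2 CPM in REPTOR[ACT] and 327 ± 12.2 CPM in controls (SD, n = 4 each) and did not pass the test (edgeR log2 fold change of -0.11, SE 0.06, adjusted p = 0.169). CG15534, of the acid sphingomyelinase family, was too low to be tested, at 0.0234, 0, 0 and 0 CPM in REPTOR[ACT] thoraces, against 0.584, 0.24, 0.373 and 0.213 CPM in control thoraces, and was above the counting limit in controls only.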
